A study of Caenorhabditis elegans with 2 samples.

Results

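The genes described here are 7 GATA factor genes of *Caenorhabditis elegans* that belong to the elt family: elt-1, elt-2, elt-3, elt-4, elt-6, elt-7 and egl-18. They were listed by name and make up 7 of the 19973 protein-coding genes examined. Each gene was given a window from 5 kb upstream of its first transcript start to its end, and every NHR-41 peak whose summit fell in that window was assigned to it. The 3 intestinal members (elt-2, elt-4 and elt-7) were compared with the 4 epidermal members (elt-1, elt-3, elt-6 and egl-18).

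GATA factors are zinc finger proteins that bind DNA at sites built on the core GATA, and in the worm they set and maintain the fate of several tissues. ELT-2 is the main GATA factor of the differentiated intestine, ELT-7 acts with it there, and ELT-4 is a small relative of ELT-2. ELT-1 specifies the epidermis in the embryo, ELT-3 acts in the hypodermis, and EGL-18 and ELT-6 act in the seam cells and the vulva. NHR-41, the protein that was precipitated, is a nuclear hormone receptor whose vertebrate relatives are TR2 and TR4.

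The study measured where NHR-41 sits on the genome by chromatin immunoprecipitation and sequencing (ChIP-seq) in whole L4 larvae. All animals were of strain RW12221, whose own nhr-41 gene on chromosome IV carries an insertion, made with CRISPR, of the tags TY1, EGFP and 3xFLAG. The larvae had been synchronised by bleaching and starvation at L1 and were collected at 48.5 h, and the antibody was directed against GFP. The 2 biological replicates form a single group, and no peak list of a control precipitation was used here. Because whole animals were used, the tissue in which a peak arose cannot be told apart.

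The ranked list of both replicates held 48276 peaks of every strength. The conservative list held 1069 of these, which passed the authors' threshold on the irreproducible discovery rate. That rate asks whether a peak keeps its rank from one replicate to the other. The other thresholded list of both replicates held 1136 peaks, with the same lowest score of 830. The replicates' own thresholded lists held 347 and 676 peaks, for replicates 1 and 2. Each peak carries a signal, the peak caller's value with no stated unit, and a score of up to 1000 that rises with reproducibility and was 830 or more in every thresholded list.

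Of the 7 genes, elt-2 and elt-7 had a conservative summit in their window and the other 5 had none. The background is that 7.84% of all protein-coding genes had one. The same genes had a summit in the other thresholded list of both replicates (background 8.26%), among conservative peaks with a score of 1000 (5.85%), with 1 peak kept per pair of replicate peaks (7.83%), with 2000 bp upstream (4.98%) and with 10000 bp upstream (11.9%). By tissue these were 2 of the 3 intestinal members and 0 of the 4 epidermal members, and the members are too few for a test of that difference.

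The DNA under both conservative peaks is shown because their summits in the conservative list lie within a few bases of a GATA-type sequence. The strongest but unthresholded peaks of egl-18 and elt-6 follow for contrast. All are on the plus strand of build ce11 (WBcel235), read from the RefSeq genome sequence, and all 4 genes are transcribed from that strand. Capitals mark TGATAA on either strand (TTATCA when read here from the opposite one). They also mark AGGTCA on either strand, which reads TGACCT from the opposite one. The first is an extended GATA site, and the second is the half-site to which many nuclear receptors bind. The elt-7 and elt-6 stretches stop at the last base before the first transcript start, which leaves out the last 68 bases of the elt-7 peak and the last 36 bases of the elt-6 window.
elt-2 peak, chrX:10480576-10480859: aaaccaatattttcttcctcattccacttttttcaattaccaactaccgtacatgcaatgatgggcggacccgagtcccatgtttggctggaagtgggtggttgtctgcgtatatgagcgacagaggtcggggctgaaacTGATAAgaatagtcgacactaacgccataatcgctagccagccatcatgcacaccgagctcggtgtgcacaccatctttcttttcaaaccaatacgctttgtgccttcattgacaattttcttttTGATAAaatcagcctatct
elt-7 peak, chrV:4770454-4770669: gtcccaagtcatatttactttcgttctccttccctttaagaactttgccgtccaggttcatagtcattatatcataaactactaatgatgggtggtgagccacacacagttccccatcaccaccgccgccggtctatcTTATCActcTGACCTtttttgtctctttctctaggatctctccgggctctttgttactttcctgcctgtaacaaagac
egl-18 strongest ranked peak, 75 bp each side of the summit, chrIV:1898399-1898549: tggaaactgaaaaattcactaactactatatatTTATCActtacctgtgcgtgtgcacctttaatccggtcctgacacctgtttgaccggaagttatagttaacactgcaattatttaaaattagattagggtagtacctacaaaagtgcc
elt-6 strongest ranked peak, from 75 bp before the summit to the gene's start, chrIV:1917862-1917976: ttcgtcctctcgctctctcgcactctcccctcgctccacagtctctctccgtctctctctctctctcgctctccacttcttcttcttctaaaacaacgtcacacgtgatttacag

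The elt-2 gene (WBGene00001250, chromosome X, 10481240 to 10483441, plus strand) had its conservative peak at 10480576 to 10480859. The summit lay 522 bp upstream of the first transcript start, in intergenic sequence. The signal was 47.5 in replicate 1 and 64.0 in replicate 2, with a mean of 55.7 ± 11.7 (SD, n = 2). Both replicates gave the peak the highest possible score of 1000, and it stood in both of their thresholded lists, at rank 225 of 347 and rank 186 of 676. A summit in the replicate's own thresholded list was found for 2.83% of all genes in replicate 1 and 5.36% in replicate 2. The summits called in each replicate alone lay 42 bp and 52 bp from the summit of the combined list. In the conservative list the elt-2 peak had a signal of 110.04 and rank 185, so that 17.2% of conservative peaks were stronger.

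The elt-7 gene (WBGene00015981, chromosome V, 4770670 to 4773086, plus strand) had its conservative peak at 4770454 to 4770737. The summit lay 74 bp upstream of the first transcript start, and the peak reached from 216 bp before that start to 67 bp after it. The signal was 26.3 in replicate 1 and 85.7 in replicate 2, with a mean of 56.0 ± 42.0 (SD, n = 2). The combined signal of 111 put it at rank 173 of the conservative list, close to elt-2, but the replicates differed far more than at elt-2. In replicate 2 the peak ranked 56 of 676 thresholded peaks and scored 1000. In replicate 1 it scored 215, ranked 2438 of 38647 ranked peaks, and was not in the thresholded list.

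Signal was in general somewhat higher in replicate 2. Over the 1050 conservative peaks with a peak of their own in both replicates, the ratio of replicate 2 to replicate 1 had a median of 1.25, a 5th percentile of 0.731 and a 95th percentile of 2.08. The ratio at elt-2 was 1.35, which 415 of these peaks (39.5%) reached or passed. The ratio at elt-7 was 3.26, and 2 of the 1050 peaks (0.190%), elt-7 itself among them, had a ratio that high. The other was a peak 1455 bp upstream of imph-1, with a ratio of 3.82. In replicate 1 the elt-7 signal was near the bottom of the conservative peaks, with 45 of them (4.29%) lower, and in replicate 2 it was near the top, with 54 (5.14%) higher. Presence in the replicate 2 list without the replicate 1 list was common: it held for 309 of the 1069 conservative peaks (28.9%), while 251 (23.5%) were overlapped in both.

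**Figure D1:**
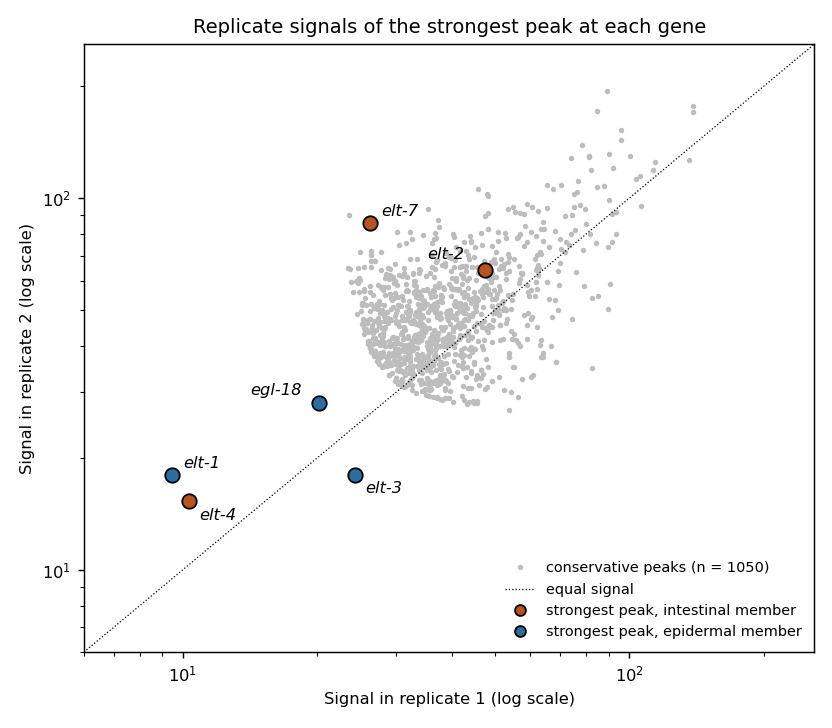
Signal of the strongest peak at each gene in replicate 1 (x axis) and replicate 2 (y axis), both on log scales and without a stated unit, for intestinal members (orange) and epidermal members (blue), over the 1050 conservative peaks (grey) and a line of equal signal. The elt-2 point lies inside the grey cloud, the elt-7 point at 26.3 and 85.7 lies at its upper left edge, and the 4 other genes drawn lie below the cloud; elt-6 is not drawn because replicate 1 called no peak over its strongest one.

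The third intestinal member, elt-4, lay close to elt-2 but had no peak of comparable size. The elt-4 gene (WBGene00001252, chromosome X, 10475527 to 10475959, plus strand) ends 5281 bp upstream of the start of elt-2, with C39B10.7 between them. Its window held 2 ranked peaks, and the stronger, 300 bp upstream of the start, had a combined signal of 11.3 and a score of 26, the lowest score in the ranked list. The signal was 10.3 in replicate 1 and 15.3 in replicate 2, with a mean of 12.8 ± 3.50 (SD, n = 2). Both values were below those of elt-2 and elt-7 in the same replicate. The elt-2 summit lay 4759 bp past the end of elt-4, outside the elt-4 window.

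Among the epidermal members, the seam cell gene egl-18 had the peak with the highest combined signal, 47.2, at chromosome IV, 1898332 to 1898615, with its summit 3848 bp upstream of the first transcript start. The signal was 20.2 in replicate 1 and 28.2 in replicate 2, with a mean of 24.2 ± 5.65 (SD, n = 2). Its score in the ranked list was 401, the highest among the epidermal members and less than the 830 of the threshold. The egl-18 gene (WBGene00001186, chromosome IV, 1902322 to 1917840, plus strand) starts 11124 bp further downstream in the RefSeq annotation than in the Ensembl annotation used here. From that later start, the 5 kb window would leave out the strongest peak. The highest combined signal in that window would be 35.0, at a peak with a score of 93. The ranked peak nearest to that later start had a signal of 30.3 and a score of 64, so that neither start had a thresholded peak.

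The elt-6 gene (WBGene00001253, chromosome IV, 1917977 to 1921643, plus strand) begins 137 bp after the end of egl-18, and the windows of this pair share 4864 bp and 4 ranked peaks. The strongest elt-6 peak had its summit 40 bp upstream of the start, a position close to that of the elt-7 peak, but a combined signal of 36.0 and a score of 242. The ranked list paired it with signals of 16.5 and 32.3, a mean of 24.4 ± 11.2 (SD, n = 2), and gave the same pair of values to the neighbouring ranked peak 172 bp downstream of the start. The higher value belonged to replicate 2, and replicate 1's own ranked list had no peak that overlapped this one.

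For elt-3 (WBGene00001251, chromosome X, 13934874 to 13941216, plus strand) the strongest peak lay in an intron, 3776 bp downstream of the first transcript start and 93 bp upstream of a later start of the same gene. The signal was 24.3 in replicate 1 and 17.998 in replicate 2, with a mean of 21.1 ± 4.42 (SD, n = 2), a combined signal of 45.8 and a score of 201. The replicate 1 value was close to that of elt-7 in replicate 1, 26.3, whereas in replicate 2 elt-7 was far higher. For elt-1 (WBGene00001249, chromosome IV, 9614995 to 9620280, plus strand) the strongest peak lay over a coding exon, 2416 bp downstream of the first start, with 9.47 in replicate 1 and 18.01 in replicate 2, a mean of 13.7 ± 6.04 (SD, n = 2). No peak at elt-1 scored more than 56.

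In order of the mean over replicates the strongest peaks were elt-7 at 56.0, elt-2 at 55.7, elt-6 at 24.4, egl-18 at 24.2, elt-3 at 21.1, elt-1 at 13.7 and elt-4 at 12.8. The elt-2 values of both replicates were above all values of the 5 genes with no conservative summit. The elt-7 value in replicate 1 overlapped the ranges of egl-18, and of elt-6 as paired in the ranked list, and the SD at elt-7 was larger than its distance to any of the lower genes except elt-1 and elt-4. The neighbours elt-6, egl-18 and elt-3 in this order did not differ beyond their spread, nor did elt-3 and elt-1, or elt-1 and elt-4.

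**Figure D2:**
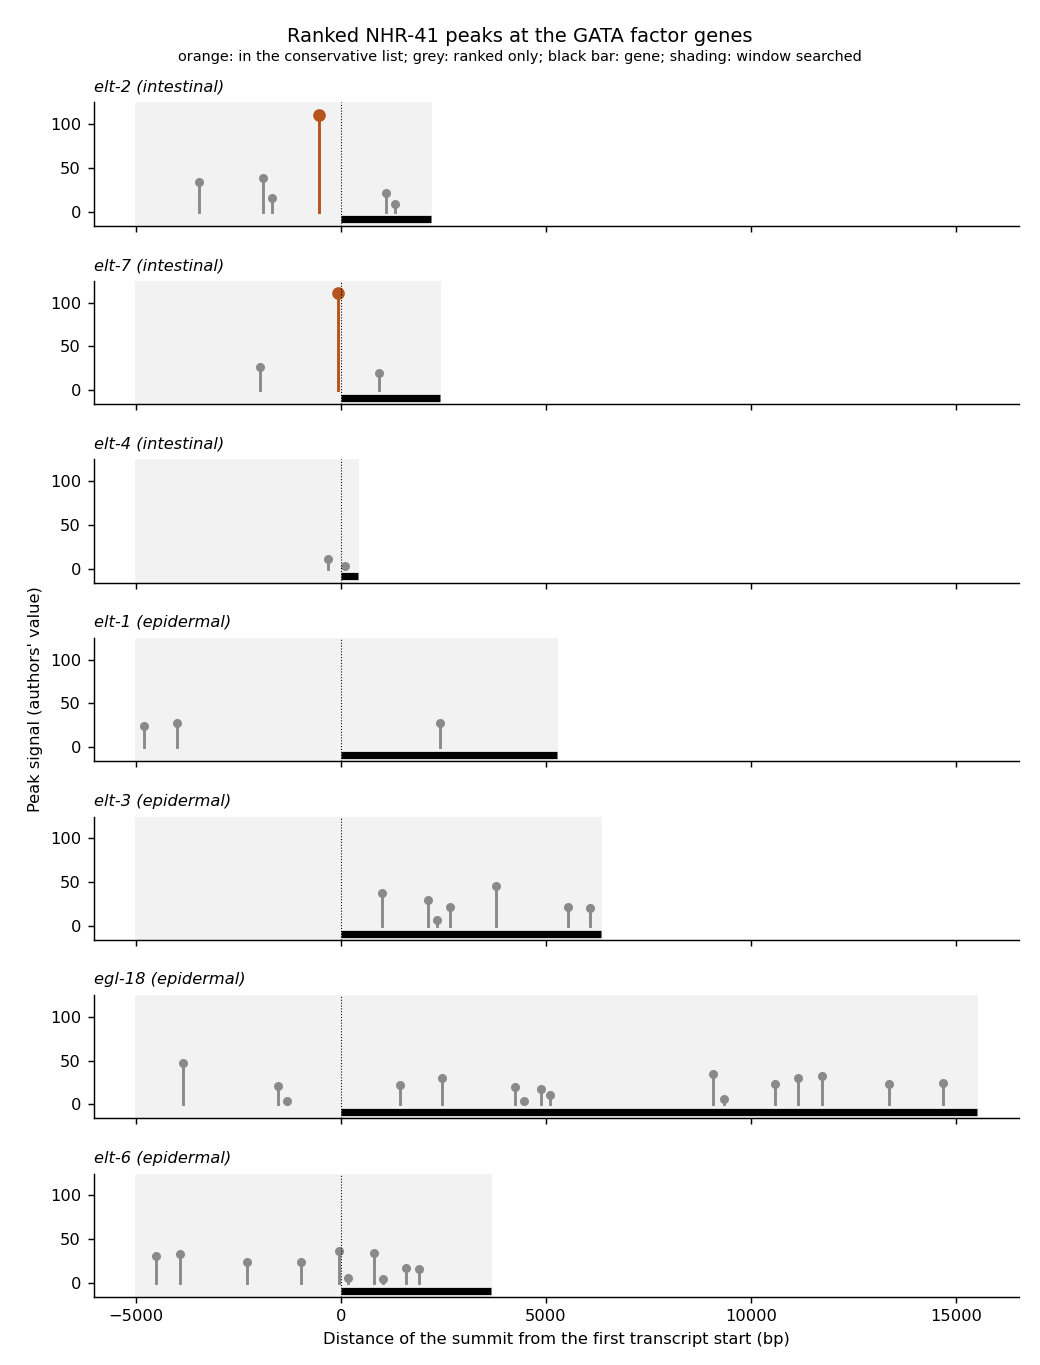
Combined signal (y axis, the authors' value without a stated unit) of every ranked peak against the distance of its summit from the first transcript start (x axis, bp), one panel for each of the 7 genes, with conservative peaks in orange, other ranked peaks in grey, genes as black bars and the searched windows shaded. The orange peaks of elt-2 and elt-7 reach 110.04 and 111, and no grey peak exceeds 47.2.

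The epidermal genes were not short of weak peaks. A ranked peak was found in every member's window, against 87.7% of all genes. The epidermal windows, merged where they overlap, covered 45.951 kb and held 32 ranked peaks, or 6.96 per 10 kb. The intestinal windows covered 20.052 kb and held 11, or 5.49 per 10 kb, and the genome as a whole held 4.81 per 10 kb. By gene the epidermal density ran from 2.92 at elt-1 to 11.5 at elt-6. The intestinal one ran from 3.68 at elt-4 to 8.33 at elt-2. Some ranked peaks share a pair of replicate peaks: the 32 came from 26 pairs, the 11 from 8 and the genome's 48276 from 41154. The density of conservative peaks was 0.997 per 10 kb at the intestinal genes, 0 at the epidermal genes and 0.107 in the genome. The intestinal value rests on the 2 peaks of elt-2 and elt-7, and the difference between the groups was not tested.

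Of the 11 intestinal ranked peaks, 2 (18.2%, exact 95% binomial interval 2.28 to 51.8) were conservative. Of the 32 epidermal peaks none was, with an upper limit of 10.9%, and over all ranked peaks the share was 2.21%. The intervals overlap and cover counting error of peaks alone. Without the 2 conservative peaks, the strongest remaining peak had a signal of 38.9 at the intestinal genes (elt-2) and 47.2 at the epidermal genes (egl-18). The median over all ranked peaks was 21.3 at the intestinal genes, 22.3 at the epidermal genes and 25.04 in the genome.

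Nothing lay just under the threshold. A ranked peak with a score of at least 540 was present in the windows of 12.8% of all genes, and among the members again at elt-2 and elt-7 alone. None of the 43 member peaks had a score from 540 to 829. That range held 845 of the 48276 ranked peaks in the genome, so small a share that 0 of 43 is not particular to the members. Of these 43 peaks, 22 lay in introns, 11 in intergenic sequence, 8 over coding exons and 2 over 3′ untranslated regions, one of them in elt-3 and the other in C39B10.7 upstream of elt-2.

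The remaining peaks at elt-2 and elt-7 were of ordinary size. At elt-2 the next was 1885 bp upstream of the start, with a combined signal of 38.9 and a score of 64, and the weakest was 1313 bp downstream, with 8.12. At elt-7 there was one of 26.3 over a coding exon of the neighbouring gene C18G1.9 and one of 19.98 in an elt-7 intron.

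The elt-7 summit lies between elt-7 and C18G1.9, which is transcribed away from it and starts 863 bp from the summit, so elt-7 has the nearer start. At elt-2, among genes that reach into its window, the nearest other protein-coding start was that of C39B10.7, 3845 bp from the summit. The noncoding gene C33D3.6 started 1356 bp away. The window rule can give a peak to several genes. The elt-2 peak's signal was also the highest in the window of C33D3.3, and the elt-7 peak's in those of C18G1.8 and C18G1.9. No tRNA, snRNA or snoRNA gene lay within 500 bp of the strongest peak of any member.

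Longer windows have more chances to hold a strong peak, so each gene was also set beside genes with windows of 0.8 to 1.25 times its own length. At elt-2, 1.35% of 13210 such genes had a stronger ranked peak, and at elt-7 1.33% of 12639 did. At egl-18, whose window of 20.519 kb was by far the longest of the members, 39.5% of 583 genes had a stronger peak. For elt-3 the share was 30.4%, for elt-6 46.7%, for elt-1 79.1% and for elt-4 83.2%. A conservative summit was present in 15.1% of the genes like egl-18 in length and in 5.97% of those like elt-4.

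**Figure D3:**
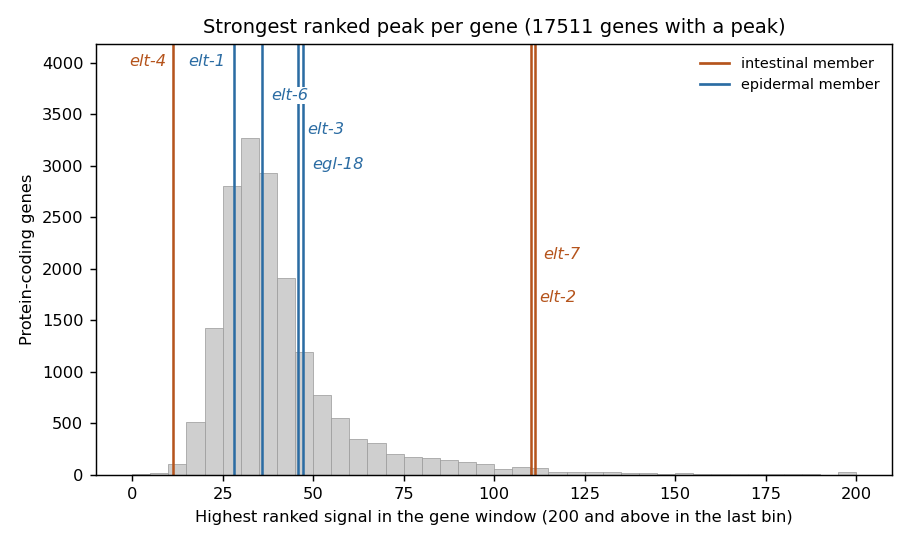
Number of protein-coding genes (y axis) by the highest combined signal of a ranked peak in the gene's window (x axis, no stated unit), for the 17511 genes with such a peak, with vertical lines at the intestinal members (orange) and epidermal members (blue). Lines for elt-2 and elt-7 stand in the right tail, and the other 5 stand between 11.3 and 47.2, on both sides of the median of 36.0.

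Both conservative member peaks had a TGATAA within 75 bp of the summit (2 of 2). The share was 22.7% over all conservative peaks (243 of 1069), 13.1% over all ranked peaks and 18.02% in the 151 bp before the first start of all protein-coding genes. At elt-2 one match was centred 0.5 bp from the summit and another 125.5 bp downstream of it. At elt-7 the match was on the minus strand, centred 1.5 bp from the summit. All matches were sought on both strands. The shorter GATAA, which every TGATAA contains, was present at 35.0% of conservative peaks and 28.1% of ranked peaks.

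Of the ranked member peaks, 5 of 11 at the intestinal genes (45.5%, interval 16.7 to 76.6) and 5 of 32 at the epidermal genes (15.6%, interval 5.28 to 32.8) had a TGATAA within 75 bp. The intervals overlap. In the egl-18 stretch shown above the match was centred 39.5 bp from the summit, and the windows of elt-6 and elt-3 had none. The windows of elt-1 and elt-4 held GATAA without the full TGATAA, at 1 place in elt-1 and 2 places in elt-4.

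The receptor half-site AGGTCA was present within 75 bp at elt-7 but not at elt-2, against 10.2% of conservative peaks, 4.66% of ranked peaks and 4.56% of the stretches before gene starts. At elt-7 it was centred 7.5 bp from the summit on the minus strand, the strand that also carries the TGATAA, and 3 bases separate one from the other. Read on that strand, AGGTCA comes first. Counting all ranked peaks of the members, 2 of 11 at the intestinal genes (18.2%, interval 2.28 to 51.8), the elt-7 peak among them, and 1 of 32 at the epidermal genes (3.13%, interval 0.0791 to 16.2) had an AGGTCA within 75 bp. These intervals overlap. These matches describe letters in a window, and binding by any factor at them was not tested.

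The placing of these matches was noticed after the sequences had been read, and it carries the limit on summit position given above. A TGATAA centred within 5 bp of the summit occurred at 26 of 1069 conservative peaks (2.43%), elt-2 and elt-7 among them, and at 502 of 48276 ranked peaks (1.04%). AGGTCA followed by 3 bases and TGATAA on one strand was read from the elt-7 peak, which is therefore bound to be counted. With that peak, the arrangement occurred at 3 conservative peaks (0.281%) and at 4 ranked peaks (0.00829%), which include those 3. Beyond this the elt-2 and elt-7 peaks had little sequence in common: the longest stretch shared on the plus strand was aatgatggg, of 9 bases. Counting the elt-2 and elt-7 peaks themselves, it stands in 4 conservative peaks (0.374%) and in 0.315% of ranked peaks. The GC content was 44.7% at elt-2 and 44.0% at elt-7, near the median of 43.0% over the conservative peaks of the same length.

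Other GATA-type genes, and listed genes of the intestine, the epidermis, and the seam cells and Wnt pathway, were read in the same windows. The background was 7.84%. Of 6 other genes with GATA-type zinc fingers, 1 had a conservative summit (16.7%): egl-27, a relative of the MTA chromatin proteins, with a signal of 148, a replicate mean of 74.1 ± 1.33 (SD, n = 2) and 1 small RNA gene within 500 bp. The endoderm factors end-1 and end-3 had ranked peaks of up to 39.4 and 38.8, lin-40 one of up to 57.2, and med-1 and med-2 had no ranked peak.

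Of 21 intestinal genes, 4 had a conservative summit (19.05%). They were the ferritin gene ftn-1 (signal 97.6, replicate mean 47.5 ± 14.5, n = 2, 1153 bp upstream), the intermediate filament gene ifb-2 (80.7, mean 38.3 ± 6.46, n = 2, 273 bp upstream), the P-glycoprotein transporter gene pgp-1 (69.3, mean 34.9 ± 12.5, n = 2, 1951 bp upstream) and the yolk protein gene vit-2 (31.0, mean 34.7 ± 12.9, n = 2, 213 bp into the gene). Of these, ftn-1 also had a summit in replicate 2's own thresholded list, and ifb-2, pgp-1 and vit-2 had one in neither replicate's own list. The replicates' lists held other genes of the 21 instead: act-5, an intestinal actin gene, in replicate 1, and the cathepsin B-like protease genes cpr-1 and cpr-6 in replicate 2. Of 17 epidermal genes 1 had a conservative summit (5.88%), ajm-1, which encodes a junction protein of epithelia that include the intestine, with a signal of 86.6 and 3 small RNA genes within 500 bp. Of 11 seam cell and Wnt genes none had one. The intestinal list had longer windows, with a median of 8953 bp against 7079 bp in the epidermal list, and the difference between the lists was not tested.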

How the data were processed

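ChIP-seq peak lists on ce11 were deposited by the authors, each made, per the submitters' notes deposited with them, from read alignments of one or both replicates with an aligned control. The aligner and the caller were not given in the sources used here. Each peak's score deposited by the authors is an irreproducible discovery rate score, capped at 1000. The signal deposited by the authors is the peak caller's value, with no stated reference level. The summit was taken from the deposited offset from the peak start. Sequencing depth is unknown, so intervals cover counting error of peaks alone.

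Gene windows came from Ensembl release 115 and bases from the RefSeq WBcel235 genome. Values of a numbered replicate are those of the overlapping peak (at least 1 bp) in that replicate's own ranked list. Means use the ranked list's 2 replicate columns, which carry no number. A further 6 columns of per-sample values were not used. Chromatin had been sonicated to 200 to 800 bp, per the labels. Shares have exact (Clopper-Pearson) 95% binomial intervals. With 1 group and no read counts, no test between groups was run. Counting and motif code was tested on simulated data. Python 3.11.15, numpy 2.4.6, pandas 2.3.3, scipy 1.17.1 and matplotlib 3.10.9 were used.

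The members and lists were chosen with earlier results of these data known. Named are all 7 members with their strongest ranked peak, the genes of the other lists with a conservative summit (up to 4 a list, by signal), and the nearest neighbours of member summits. Beyond that rule, imph-1, the genes sharing the elt-7 motif pair and the act-5, cpr-1, cpr-6, endoderm and lin-40 values were chosen after their values were seen. So were the pop-1 peak and the other genes whose windows share the elt-2 or elt-7 signal. The alternatives comprised each replicate alone, the other thresholded list, a score of 1000, 1 peak per pair, summits whose nearest transcript start is the member's, GATAA for TGATAA, 2000 or 10000 bp upstream, motif windows of 50 or 100 bp, and RefSeq gene models.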

Additional observations from a re-analysis of the deposited data

How the results depend on the processing

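Leaving out either replicate moved the number of members with a summit between 1 and 2, the number of summits at the members between 1 and 2, the intestinal members with one between 1 and 2, and the intestinal density between 0.499 and 0.997 per 10 kb. The lower values are those without replicate 2, where elt-7 was lost. The intestinal density was 1.81 per 10 kb with 2000 bp upstream and 0.659 with 10000 bp, where the length counted changes while both summits stay. Over all alternatives run, the epidermal members had 0 summits. The elt-2 signal was 64.0 without replicate 1 and 47.5 without replicate 2, on the scale of single replicates. The number of listed intestinal genes with a summit, 4, was 1 without replicate 2, a gene (act-5) that is not among those 4, and 2 at a score of 1000. The 1 epidermal gene became 0 without either replicate and 2 with 10000 bp, and the seam cell and Wnt genes went from 0 to 1 in the other thresholded list and 2 with 10000 bp. In all, 96 of 111 recomputed values were classed as kept, those with RefSeq gene models included, an alternative chosen after seeing the data. Some of these could not change. Both conservative member peaks score 1000 and lie less than 2000 bp upstream, and elt-2, elt-4 and elt-7 have the same coordinates in RefSeq. The signals and TGATAA matches of both peaks were thus fixed under those alternatives, and the count of 96 is no measure of robustness. Values classed as kept could still differ. The elt-7 signal was 85.7 without replicate 1 against 111, and the listed intestinal genes were 3 without replicate 1 and 5 with 10000 bp. Those 3 were ftn-1, cpr-1 and cpr-6, of which ftn-1 alone was among the 4. The elt-7 signal without replicate 2, where no summit was left, was not among the 111. No paired analysis was possible because there is 1 group. With 2 replicates, the elt-7 result rests mainly on replicate 2.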

Other observations

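The AGGTCA, 3 bases, TGATAA arrangement of the elt-7 peak, noticed after its sequence had been read, occurred at 3 other ranked peaks. Of these, the peaks 556 bp upstream of F20H11.1 (combined signal 92.0, score 1000) and 251 bp upstream of rme-1 (61.9, score 892) were conservative. The third, 25 bp upstream of egl-13 (77.5, score 699), was not. AGGTCA and TGATAA stood together within 75 bp at 38 conservative peaks (3.55%) and 332 ranked peaks (0.688%). Of the 63 other combinations of order, strand and gap from 0 to 15 bases, 49 occurred at no conservative peak, 12 at 1 and 2 at 2. Among ranked peaks the most frequent of those combinations occurred at 5 and the median was 1. The elt-7 peak, from which the arrangement was read, is bound to hold it. Without that peak the arrangement occurred at no more conservative peaks than the most frequent of those combinations, and at fewer ranked peaks. The number of arrangements looked at and the choice of this one after the fact leave its rank without a test.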
